A study of Mus musculus with 30 samples.

Results

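Untreated mouse leukemia cells carrying the CALM/AF10 fusion were compared with normal granulocyte-macrophage progenitors (GMP) by RNA sequencing. The members are the 3 control samples of the CALM/AF10 cells and the 3 control samples of the GMP, 6 of the 30 samples in the series, chosen by their labels alone. All 6 are C57BL/6 mouse cells taken at 0 h, before any RG3039, an inhibitor of the scavenger decapping enzyme Dcps that was given at 1 µM in the rest of a time course with samples at 6 h and 10 h. The CALM/AF10 cells are labelled as acute myeloid leukemia, and the labels give neither the way the fusion was introduced nor how many clones the cells hold. The GMP are labelled as normal bone marrow, and the labels give no sorting gate, age, sex or pooling. Nor do they say whether the 3 samples of a group were separate cultures or animals, so a p-value here measures only the spread between these samples, which may be technical.

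The 2 cell types were deposited in separate tables of TPM, a length-scaled share of all transcripts in a sample. There were 31854 genes listed for CALM/AF10 cells and 34406 for GMP, of which 30337 are in both. Each sample was rescaled to 1000000 over those 30337 genes, which already held 99.3% of the TPM in each CALM/AF10 sample and 98.8% to 98.9% in each GMP sample. Cell type and table coincide, so a difference between the cells and a difference in how the tables were made cannot be told apart. For that reason ribosomal protein, histone and other multi-copy genes were treated as not comparable, and a gene was called only where the difference was large and the gene well expressed. A call required a limma adjusted p under 0.05, a log2(TPM + 1) difference of at least 2, a mean of at least 10 TPM in the higher group, and 3 values in one group that did not overlap the 3 in the other.

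CALM/AF10 joins PICALM (CALM), a clathrin assembly protein, to MLLT10 (AF10), a partner of the histone methyltransferase DOT1L. Leukemias with this fusion are known for high expression of HOXA genes and of their cofactor MEIS1, transcription factors that normally fall silent as blood progenitors mature. GMP are committed bone marrow progenitors of neutrophils and monocytes, known for abundant mRNA of primary granule proteases and peroxidase and for the surface proteins Kit, Cd34 and the Fc gamma receptors. Their close relatives give rise to eosinophils, basophils and mast cells.

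In the GMP samples these defining genes were present. Mpo, the myeloperoxidase of primary granules, stood at 7971 ± 182 TPM (mean ± SD, n = 3, as for all such values), Elane at 6841 ± 499, Cd34 at 101 ± 5.06, Kit at 42.5 ± 1.66 and the Fc gamma receptor Fcgr3 at 190.3 ± 4.4. The lymphoid marker lists were low there, with a summed level of 39.3 to 45.4 TPM over 19 B lineage genes and of 22.1 to 28.9 TPM over 18 T and NK lineage genes. The GMP samples also held mast cell, basophil and eosinophil mRNA, 390.1 to 473 TPM summed over 18 genes, against 27.6 to 31.3 TPM in the CALM/AF10 samples. In bulk RNA, fewer cells of a type and less RNA per cell cannot be told apart. Correlations were taken over all 30337 shared genes, also those too low to be tested. Samples of a cell type had a Pearson r of 0.995 in CALM/AF10 cells and 0.988 to 0.991 in GMP. Between samples of different cell types the Pearson r was 0.933 to 0.938. Ribosomal protein genes took 14.3% to 14.5% of the TPM in CALM/AF10 cells and 16.2% to 18.4% in GMP, and all multi-copy genes together 49.4% to 50.6% against 58.7% to 60.6%.

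Of 10491 genes tested that are not multi-copy, 305 were called higher in CALM/AF10 cells (2.91%) and 132 lower (1.26%). The 12 largest differences in each direction include Csn2, Klk1b11, Thy1, Stfa1 and Gpnmb among the higher, and Erdr1, Mpo, Prg2, Xist, Adgrl4 and Tceal8 (the 6 largest, in that order) among the lower. An adjusted p under 0.05 alone was reached by 29.1% of genes as higher and 37.4% as lower, 66.5% in all, so the size of the difference carries the description below. The median log2 difference of all genes tested was -0.10, and 5939 of the 10491 differences were negative. When the samples were rescaled over the genes that are not multi-copy (the alternative rescaling below), that median moved to -0.41, 8161 of 11477 differences were negative and the counts became 354 higher and 327 lower, so that 52.0% of called genes were higher in place of 69.8%. The differences below are on the first scale and are not shifted by its median; list medians stand beside it. Just inside the threshold was the kinase gene Pim1 at 2.00, and just outside it Stard9 at 1.996 (values of 10.5 and 1.88 TPM). At the lower threshold the nearest genes were Serpine2 at -2.003 and Kcnip3 at -1.999.

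**Figure D1:**
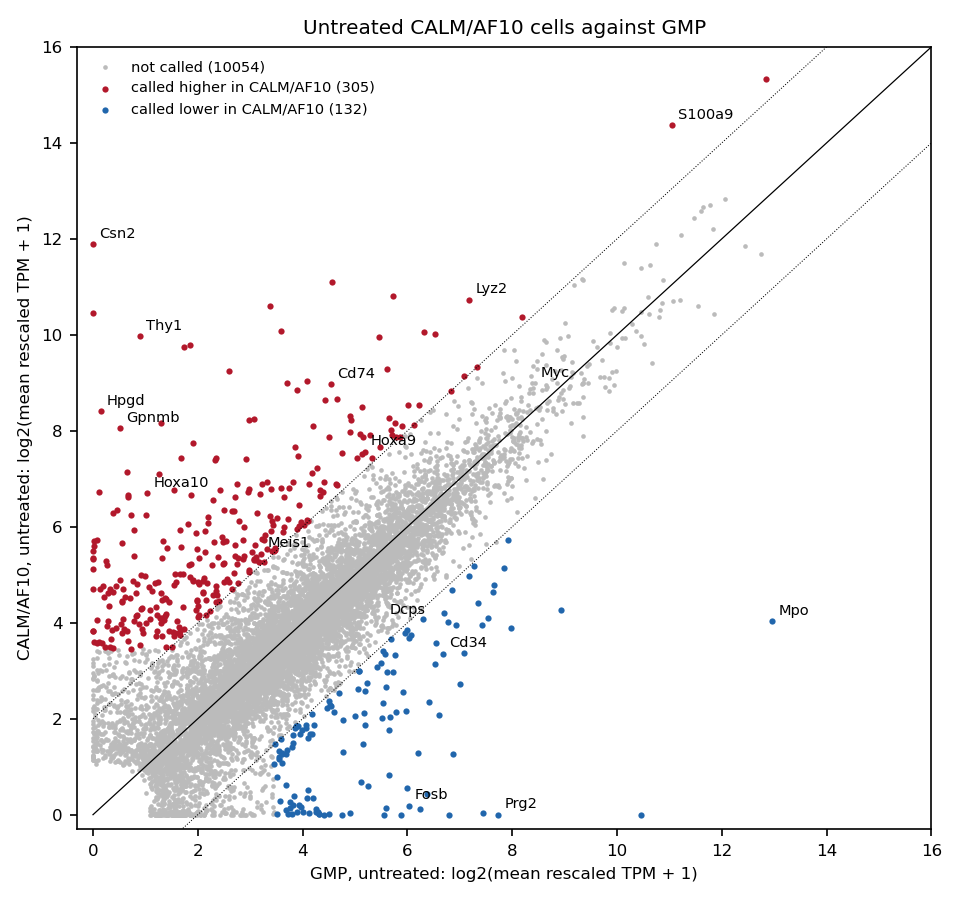
Each point is 1 of the 10491 genes tested, with the log2 of the mean rescaled TPM + 1 of the 3 untreated GMP samples on the x axis and of the 3 untreated CALM/AF10 samples on the y axis. Red marks the 305 genes called higher and blue the 132 called lower, the dotted lines stand at a log2 difference of 2 in either direction, and Csn2 lies on the left edge and Mpo far to the lower right.

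The gene with the highest CALM/AF10 level among those listed at 0 in all 3 GMP samples was Csn2 (chr5:87692624-87699630, minus strand, mm10), which encodes beta-casein, a milk protein of the mammary gland. It stood at 3498, 3967 and 3886 TPM in the 3 CALM/AF10 samples (limma adjusted p = 1.03e-10), a level close to that of Elane in the same samples (3114, 3446 and 3255 TPM). On the log2(TPM + 1) scale, the largest fall among genes detected in every sample was that of Mpo (chr11:87793581-87804413, plus strand), at 12.8, 17.9 and 15.5 TPM in CALM/AF10 cells and 8180.2, 7878 and 7854 TPM in GMP. The Mpo difference was -8.94 ± 0.11 (log2 difference ± SE, as for all such values; adjusted p = 9.06e-09 by limma), or 518-fold lower on the means, a fold that Xist and Tceal8, at lower levels, exceeded. The 2 groups were far apart for both genes, and no sample lay between them.

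The 250 bases before the start sites of these genes are shown because Csn2 and Mpo are the genes described above at the 2 ends of the comparison. They were taken from RefSeq on GRCm38.p6, whose start sites differ from the ends of the gene spans given above from GENCODE, in the direction of the gene, with the match to a motif in capitals. The Csn2 region (chr5:87699426-87699675, minus strand) holds 1 match to TTCNNNGAA, the form bound by STAT factors, which are known to drive this gene in the mammary gland, and no match to GAGGAAGT. The Mpo region (chr11:87793534-87793783, plus strand) holds 1 match to GAGGAAGT, the form bound by the myeloid ETS factor PU.1, and no match to TTCNNNGAA. Both strands were searched, the 2 motifs do not overlap here, and they were chosen after the values of these genes were known. Among 32851 promoters of this length, 7.02% hold TTCNNNGAA and 2.44% hold GAGGAAGT. A match is a description of the letters only.
Csn2: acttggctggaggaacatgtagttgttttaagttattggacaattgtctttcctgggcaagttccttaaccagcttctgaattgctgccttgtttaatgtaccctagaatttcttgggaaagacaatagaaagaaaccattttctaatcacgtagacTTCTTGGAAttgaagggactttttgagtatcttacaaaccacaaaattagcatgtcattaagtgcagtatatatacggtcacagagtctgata
Mpo: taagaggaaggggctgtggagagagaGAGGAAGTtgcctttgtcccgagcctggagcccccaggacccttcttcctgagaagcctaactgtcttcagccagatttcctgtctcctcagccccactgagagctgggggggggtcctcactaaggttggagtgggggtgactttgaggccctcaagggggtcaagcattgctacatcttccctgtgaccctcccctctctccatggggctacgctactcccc

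Other genes with the largest excess in CALM/AF10 cells were near absent from GMP. Thy1, a surface glycoprotein best known from T cells and stem cells, had 958, 1015 and 1039 TPM in CALM/AF10 cells and 0.762, 1.05 and 0.742 TPM in GMP, a difference of 9.09 ± 0.08 (limma adjusted p = 1.82e-09). Hpgd, which breaks down prostaglandins, had 347, 339 and 336 TPM against 0.126, 0.155 and 0.0452 TPM. Every CALM/AF10 sample lay far above every GMP sample in both. Gpnmb, a glycoprotein of macrophages and melanocytes, had 264 ± 4.77 TPM against 0.429 ± 0.216 TPM, and the endothelial lipase gene Lipg 104 ± 4.07 TPM against 0.0778 ± 0.071 TPM. Tarm1, a receptor of myeloid cells, had 884 ± 34.7 TPM against 2.63 ± 0.47 TPM, Wfdc17 607 ± 24.8 TPM against 5.04 ± 2.48 TPM, and Dpep2, a leukotriene-processing dipeptidase, 141 ± 8.45 TPM against 0.571 ± 0.645 TPM. All 5 differed by at least 6.57 on the log2 scale.

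Several others with large differences have close paralogs, and the counting could have split or shifted reads among them. Klk1b11, a tissue kallikrein protease gene, stood at 1347, 1446 and 1422 TPM in CALM/AF10 cells and was listed at 0 in the 3 GMP samples, and it shares 32.1% of its 31-base stretches with transcripts of other genes. Stfa1 and Stfa2, stefin A protease inhibitors of myeloid cells, averaged 853 and 284 TPM against 2.31 and 1.45 TPM, with 43.8% and 33.3% of such stretches shared. S100a4, a calcium-binding protein, averaged 1545 TPM against 9.41 TPM, with 49.2% shared. In all 4 the CALM/AF10 samples lay above the GMP samples, and the amount that belongs to each paralog is uncertain. Over all calls, 50 of the 305 higher and 11 of the 132 lower genes share 20% or more of their stretches.

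Most HOXA cluster genes were higher in CALM/AF10 cells. Of 11 genes, 9 passed the filter on low values, 6 were called higher (Hoxa3, Hoxa5, Hoxa6, Hoxa9, Hoxa10 and Hoxa11) and 0 lower, and all 9 differences were positive, with a median of 2.09 against -0.10 over all genes tested. Rescaling over the genes that are not multi-copy gave 5 called higher and a median of 1.98. Hoxa9, the cluster member most studied in myeloid leukemia (chr6:52223100-52231089, minus strand, mm10), had 195, 180.2 and 189.8 TPM in CALM/AF10 cells and 36.1, 33.6 and 36.4 TPM in GMP, a difference of 2.38 ± 0.06 (limma adjusted p = 9.63e-08). It was the most abundant HOXA gene in both cell types, and the groups did not overlap. Hoxa10, the next gene of the cluster, had 104, 105 and 101 TPM against 0.672, 0.846 and 1.64 TPM, a difference of 5.70 ± 0.16 (limma adjusted p = 2.37e-07). It was second in level in CALM/AF10 cells and barely present in GMP. Hoxa11, a gene of limb and uterus development, had 50.9, 44.9 and 47 TPM against 0, 0 and 0.0317 TPM, and 33.9% of its 31-base stretches occur in other transcripts. Its antisense gene, Hoxa11os, was also called higher, at 39.9 TPM and listed at 0 in GMP, and the sources used here do not state a stranded count, so the 2 cannot be told apart.

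The remaining members were lower in level, and most lay above GMP. Hoxa3 stood at 10.3 ± 0.827 TPM against 1.64 ± 0.123, Hoxa5 at 16.9 ± 0.986 against 3.48 ± 0.547, and Hoxa6 at 24.2 ± 2.31 against 4.11 ± 0.526. Of the 31-base stretches of Hoxa3, 26% occur in other transcripts. Hoxa7 had 42 ± 2.35 TPM against 15.4 ± 0.68, a difference of 1.39 that stayed under the size threshold. Hoxa4 had 1.37, 2.45 and 1.54 TPM in CALM/AF10 cells and 0.978, 1.49 and 1.34 TPM in GMP, and these values overlapped. Hoxa2 stood at 1.2 TPM against 0.0427 and did not pass the filter, and Hoxa13, the last gene of the cluster, was listed at 0 in all 6 samples. Of 24 HOXB, HOXC and HOXD genes only 3 passed the filter and 0 were called, with a median difference of -0.41 and a summed level of 6.72 to 6.88 TPM in CALM/AF10 cells and 9.26 to 12.3 TPM in GMP.

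**Figure D2:**
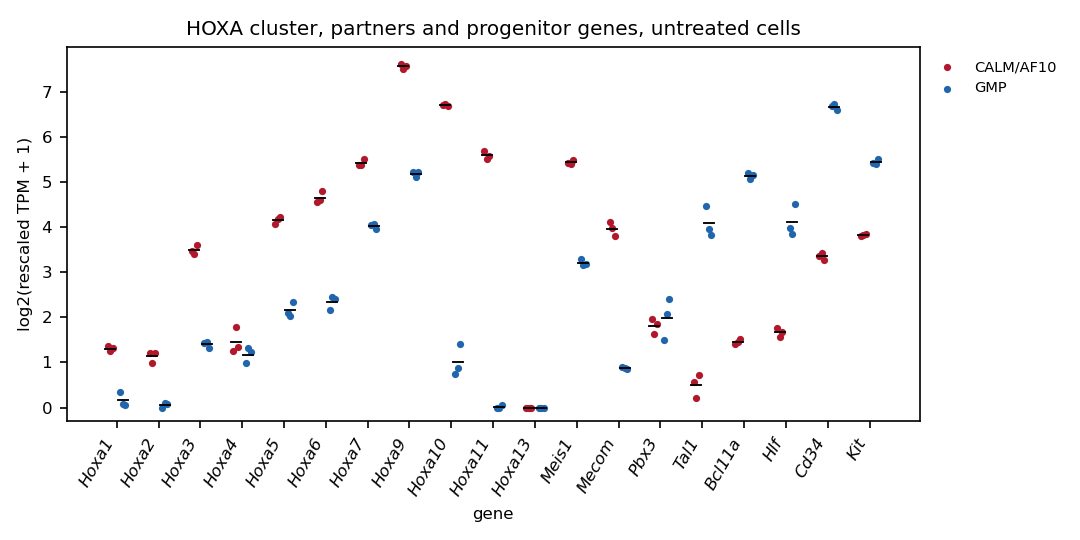
Rescaled TPM on the log2(TPM + 1) scale for the HOXA genes, their partners and progenitor genes in the 3 untreated CALM/AF10 samples (red) and the 3 untreated GMP samples (blue), with a black bar at each group mean. Hoxa10 and Hoxa11 show the widest gaps within the cluster, Hoxa4 overlaps, and Tal1, Bcl11a and Cd34 lie in the opposite direction.

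The partners of HOX proteins were called in both directions. Of 12 genes 9 were tested, 3 were called higher and 2 lower. Meis1, which binds DNA together with HOXA9, had 41.8, 41.5 and 44.2 TPM in CALM/AF10 cells and 8.87, 7.92 and 8.04 TPM in GMP (difference 2.23 ± 0.07, limma adjusted p = 3.7e-07). Mecom (Evi1), a zinc finger factor of stem cells, had 16.4, 14.9 and 12.9 TPM against 0.858, 0.824 and 0.804 TPM. Both were low or near absent in GMP. Among partners that form a complex with MEIS and HOX proteins, Pbx2 stood at 29.1 against 33.1 TPM, and the values of Pbx3 overlapped at 2.88, 2.09 and 2.64 TPM against 1.82, 3.21 and 4.3 TPM. Sox4 was called lower, at 6.99 against 32.8 TPM, with 54.7% of its 31-base stretches shared with other transcripts.

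Of 21 genes encoding fusion partners and chromatin regulators, 0 were called in either direction, and 17 of the differences were negative, with a median of -0.51. Under the alternative rescaling 1 was called lower, 19 were negative and the median was -0.82. Picalm, the mouse gene of the first fusion partner, had 55.7, 66.6 and 72.3 TPM in CALM/AF10 cells and 18, 18.9 and 19.9 TPM in GMP, a difference of 1.72 ± 0.10 (limma adjusted p = 7.5e-06) under the size threshold. Mllt10, that of the second partner, had 21.8, 23.6 and 23.6 TPM against 18.9, 19.1 and 18.8 TPM, a difference of 0.27 that became -0.024 when samples were rescaled over the genes that are not multi-copy. Whether reads of the fusion transcript count toward either gene was not tested. Dot1l stood at 27.2 against 39.1 TPM, Kmt2a, the gene of the histone methyltransferase MLL, at 18 against 57.6 TPM, and Ezh2, the catalytic subunit of Polycomb complex PRC2, at 16 against 65.2 TPM.

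The list of other stem and progenitor transcription factors, which does not hold Mecom, had calls only in the lower direction. Of 20 tested, 5 were called lower (Bcl11a, Tal1, Zfpm1, Hlf and Gfi1b) and 0 higher, with a median of -0.79. Bcl11a, a repressor needed in lymphoid and early progenitors, had 1.66, 1.74 and 1.88 TPM in CALM/AF10 cells and 35.9, 32.6 and 34.6 TPM in GMP (difference -3.68 ± 0.08, limma adjusted p = 7.94e-08). Tal1, a factor of stem cells and of the erythroid, megakaryocyte and mast cell lineages, had 0.49, 0.161 and 0.656 TPM against 21, 14.7 and 13.2 TPM. Zfpm1 (Fog1), the cofactor of GATA1, averaged 2.94 against 26.4 TPM, and Hlf, a stem cell factor, 2.2 against 16.7 TPM. Genes that stayed within the size threshold included Gata2 at 10.6 against 37.7 TPM, Myb at 125 against 308 TPM and Runx1 at 107 against 150.1 TPM. The progenitor surface genes Cd34 and Kit were likewise lower: Cd34 had 9.22, 9.81 and 8.73 TPM against 102, 106 and 95.6 TPM (difference -3.32 ± 0.07, limma adjusted p = 5.66e-08) and was called, and Kit had 13.1, 13.2 and 13.3 TPM against 41.8, 41.3 and 44.4 TPM (difference -1.61 ± 0.06), under the size threshold.

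Among 17 tested factors of myeloid differentiation, 5 were called higher in CALM/AF10 cells (Rara, Id1, Id2, Maf and Cebpb) and 0 lower, with a median of 0.76, or 4 higher with a median of 0.47 under the alternative rescaling. Rara, the retinoic acid receptor alpha, had 96.2, 100.2 and 97.5 TPM in CALM/AF10 cells and 5.6, 6.01 and 4.91 TPM in GMP, a difference of 3.93 ± 0.08 (limma adjusted p = 4.77e-08). Id1 and Id2, which block basic helix-loop-helix factors, averaged 102 and 73.6 TPM against 8.11 and 9.37 TPM. Maf, a factor of macrophages, averaged 11.3 against 0.579 TPM. The master regulators of the lineage were close between the cell types, with Spi1 (PU.1) at 263, 279.8 and 286 TPM against 271, 273 and 244 TPM, which overlapped, and Cebpa at 110.0, 91.5 and 101 TPM against 78.1, 74.2 and 65.1 TPM. Cebpe, the factor of late granulocytes, and Irf8, that of monocytes, differed by -1.43 and -0.99, both under the size threshold.

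Primary granule genes, a hallmark of GMP, mostly had negative differences, with Mpo as the extreme. Of 14 tested, 12 differences were negative, with a median of -1.004, but 1 was called lower (Mpo; 2 under the alternative rescaling) and 2 higher (Lyz2 and Ctsc). The neutrophil elastase gene Elane had 3114, 3446 and 3255 TPM in CALM/AF10 cells and 6883, 6323 and 7318 TPM in GMP, a difference of -1.06 ± 0.08, and the proteinase gene Prtn3, its neighbour on the chromosome, a difference of -1.41 ± 0.07. Cathepsin G, Ctsg, differed by -0.36. These 3 genes thus stood in CALM/AF10 cells at 3272, 1385 and 1674 TPM, while Mpo averaged 15.4 TPM. Lysozyme 2, Lyz2, had 1639, 1739 and 1736 TPM against 154, 152 and 126 TPM (difference 3.56 ± 0.08, limma adjusted p = 9.31e-08), with 32.8% of its 31-base stretches shared with other genes. Cathepsin C, Ctsc, which activates the granule proteases, averaged 308 against 49.3 TPM.

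Genes of the late neutrophil granule list, which also holds genes of other neutrophil proteins such as S100a8, S100a9 and Padi4, were split. Of 19 tested, 6 were called higher in CALM/AF10 cells and 2 lower, with a median of 0.21 that became -0.09 when samples were rescaled over the genes that are not multi-copy. The alarmin genes S100a8 and S100a9, which encode the subunits of calprotectin, averaged 41013 and 21163 TPM in CALM/AF10 cells against 7357 and 2125 TPM in GMP, with differences of 2.49 ± 0.12 and 3.32 ± 0.11 (limma adjusted p = 3.47e-06 and 4.07e-07). Chil3, a chitinase-like protein of myeloid cells, averaged 986 against 42.8 TPM with 41.5% of its stretches shared, Padi4, a histone-citrullinating enzyme, 202 against 13.4 TPM, and the collagenase gene Mmp8 121 against 13 TPM. The secondary granule genes Ltf (lactoferrin) and Camp (cathelicidin) were the 2 called lower. Ltf had 10.5, 11.5 and 10.7 TPM in CALM/AF10 cells and 113, 88.3 and 75.3 TPM in GMP, and Camp 29.6, 19.3 and 23.4 TPM against 231, 214 and 149 TPM. The groups were fully apart in each case, although the GMP samples spread widely, with sample c lowest in both genes.

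**Figure D3:**
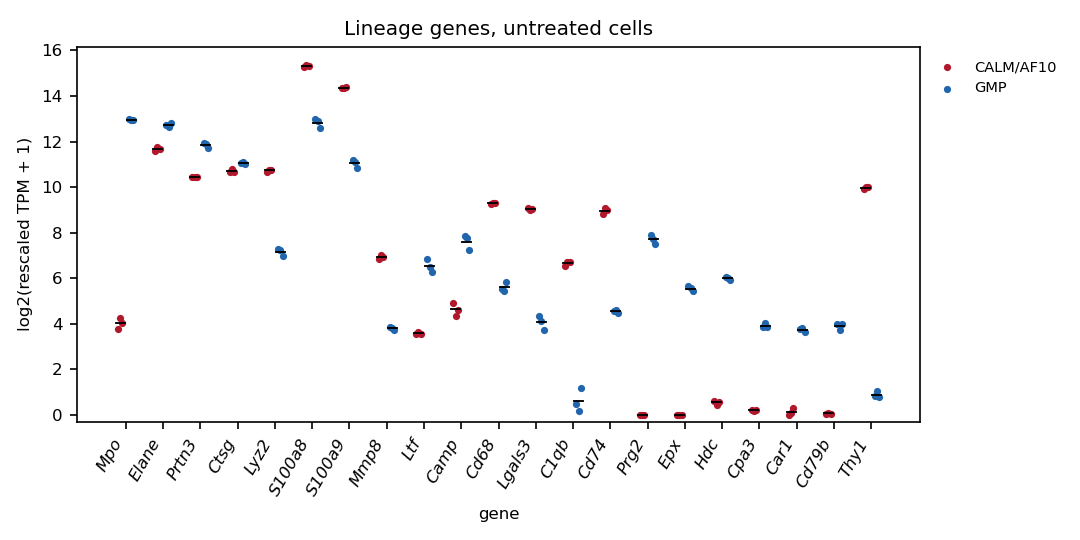
Rescaled TPM on the log2(TPM + 1) scale for granule, macrophage, MHC class II and other lineage genes in the 3 untreated CALM/AF10 samples (red) and the 3 untreated GMP samples (blue), with a black bar at each group mean. Elane, Prtn3 and Ctsg stay high in both, Mpo, Prg2, Epx and Hdc are low in CALM/AF10 cells, and Cd68, Lgals3, C1qb, Cd74 and Thy1 are high there.

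Many monocyte and macrophage genes were higher in CALM/AF10 cells. Of 20 tested, 9 were called higher and 1 lower, 16 differences were positive, and the median was 2.19; the summed level was 1971 to 2023 TPM against 356 to 365 TPM. C1qb, a chain of complement component C1q made by macrophages, had 91.3, 105 and 104 TPM in CALM/AF10 cells and 0.384, 0.134 and 1.24 TPM in GMP, a difference of 6.05 ± 0.23 (limma adjusted p = 9.94e-07), and its partner C1qc averaged 41.1 against 0.721 TPM. The lectin gene Lgals3 (galectin-3) had 538, 513 and 533 TPM against 19, 16.6 and 12.3 TPM. All CALM/AF10 values were far above the GMP values. The lysosomal protease gene Ctss averaged 169 against 6.53 TPM, the lysosomal glycoprotein gene Cd68 622 against 47.7 TPM, and Adgre1, an adhesion receptor used as a macrophage marker in mice, 27.5 against 1.26 TPM. The member called lower was Apoe, an apolipoprotein of macrophages, at 4.16, 4.23 and 3.75 TPM against 46.6, 47.5 and 41.2 TPM (difference -3.19 ± 0.08). Csf1r, the receptor of macrophage colony-stimulating factor, differed by 1.81 and was not called.

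Some MHC class II genes were higher as well. Among 11 tested genes of dendritic cells and the class II pathway, 3 were called higher (Cd74, H2-Eb1 and H2-Aa) and 0 lower, with a median of 1.55. Cd74, the invariant chain that accompanies class II molecules, had 455, 543 and 503 TPM in CALM/AF10 cells and 22.4, 23.2 and 21.5 TPM in GMP, a difference of 4.42 ± 0.07 (limma adjusted p = 2.16e-08). The class II chain genes H2-Aa and H2-Eb1 averaged 63.2 and 45.2 TPM against 6.4 and 2.97 TPM. The groups did not overlap for any of the 3.

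Genes of eosinophils, basophils and mast cells were lower in CALM/AF10 cells, and several were listed at 0 there. Of 18 genes, 10 passed the filter, 6 were called lower (Prg2, Epx, Hdc, Prss34, Cpa3 and Prg3) and 0 higher, and the median was -3.64. Prg2, the major basic protein of eosinophil granules, was listed at 0 in the 3 CALM/AF10 samples and had 240.2, 213 and 182 TPM in GMP (limma adjusted p = 1.3e-08). Epx, the eosinophil peroxidase, was likewise listed at 0 in the CALM/AF10 samples against 49, 46.4 and 42.2 TPM. Prss34, a basophil protease, was also listed at 0 in CALM/AF10 cells and averaged 20.2 TPM in GMP. In total 6 of the 18 genes were at 0 in all CALM/AF10 samples (the others were Mcpt4, Fcer1a and Gata1) and 2 were at 0 in all GMP samples (Mcpt4 and Tpsab1). Hdc, which makes histamine, had 0.528, 0.37 and 0.483 TPM in CALM/AF10 cells and 65.3, 63.3 and 59.1 TPM in GMP, a difference of -5.44 ± 0.09. The eosinophil ribonuclease genes Ear1, Ear2 and Ear6, which are close paralogs, were among the 12 largest falls, with 57.6, 81.7 and 116 TPM in GMP against 0, 0.342 and 1.39 TPM. Whether GMP samples held cells already committed to these lineages was not tested.

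Few markers of other lineages were called, and a single call in lists of this size is not read as a result about the list. Under the alternative rescaling the calls were 4 lower and 1 higher of 15 erythroid and megakaryocyte genes, with a median of -2.07, and 3 lower of 15 B lineage genes. Among 15 tested erythroid and megakaryocyte genes 1 was called, Car1, a carbonic anhydrase of red cell precursors, lower at 0.10 against 12.5 TPM, and the median was -1.40. Of 11 tested B lineage genes 1 was called lower, Cd79b, part of the B cell receptor, at 0.0447 against 14 TPM. Of 18 T and NK genes 5 passed the filter, and Thy1 was the 1 called. Of the other genes of this list, Cd3e had 0.0268 against 0.251 TPM, Cd4 0.0688 against 0.285 TPM, and Cd3d, a chain of the T cell receptor complex, 4.11 against 13.4 TPM. Outside the list, and named after their values were seen, Tox, a factor of T cell development, was called higher at 26.1 against 0.135 TPM (difference 4.58), and the T cell costimulatory receptor gene Cd28 averaged 8.04 against 0.353 TPM, under the level a call required. No gene of 3 tested stromal and endothelial markers was called. Adgrl4, an adhesion receptor of endothelium, was listed at 0 in CALM/AF10 cells and had 111, 123 and 97.6 TPM in GMP, and Tceal8, an X-linked gene, averaged 0.088 against 74.3 TPM.

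Surface and adhesion genes were called higher more often than lower, with 5 of 23 higher and Cd34 alone lower, or 3 of 23 higher when samples were rescaled over the genes that are not multi-copy. Itgb7, an integrin chain of gut-homing leukocytes, had 47.9, 52.8 and 51.1 TPM in CALM/AF10 cells and 4.12, 4.17 and 3.62 TPM in GMP (difference 3.38 ± 0.08, limma adjusted p = 9.04e-08). Itgb2 and Itgam, the 2 chains of the myeloid integrin Mac-1, averaged 108 and 239.5 TPM against 19.3 and 50.9 TPM, with 68.3% of the stretches of Itgam found in other annotated transcripts. Ly6a, the stem cell antigen Sca-1, averaged 176 against 14.1 TPM, and 31.9% of its stretches are shared with other transcripts. Fcgr3 overlapped between the groups, at 173, 198 and 191 TPM against 194, 192 and 185 TPM.

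Of 23 tested cytokine and growth factor receptors, 4 were called higher and 0 lower, or 3 of 24 higher under the alternative rescaling. Ccr1, a chemokine receptor, had 51.2, 51.7 and 49.8 TPM in CALM/AF10 cells and 1.72, 1.42 and 1.43 TPM in GMP (difference 4.36 ± 0.08). The decoy receptor gene Il1r2 averaged 39.9 against 3.05 TPM, and Csf2rb, the shared beta chain of the IL-3, IL-5 and GM-CSF receptors, 257 against 50.9 TPM. Il4ra was at 37.7 against 7.99 TPM, close to the threshold, and its difference dropped to 1.99 without GMP sample b. The alpha chain of the IL-3 receptor, Il3ra, overlapped, at 36.5, 37.5 and 43.1 TPM against 39.9, 37.2 and 39.9 TPM.

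Immediate early genes, which switch on within minutes of a stimulus, were lower in CALM/AF10 cells where they were called. Of 28 tested, 6 were called lower (Fosb, Dusp1, Csrnp1, Jun, Fos and Dusp2) and 0 higher, with a median of -0.79. Fosb, a subunit of the AP-1 factor, had 0.156, 0.0597 and 0.205 TPM in CALM/AF10 cells and 68.1, 59 and 65.5 TPM in GMP, a difference of -5.84 ± 0.10 (limma adjusted p = 2.16e-08). The phosphatase gene Dusp1 had 5.06, 5.75 and 6.01 TPM against 126, 132 and 124 TPM, and Jun 15, 15.5 and 15.1 TPM against 115, 101 and 112 TPM. The GMP samples were high in all 3. For these 3 the gap was found at 0 h and not later, since at 6 h and 10 h of treatment the differences were 0.15 and 0.37 for Fosb, 0.09 and 0.80 for Dusp1, and -0.02 and 0.47 for Jun. Of the 6 called genes, 4 differed by less than 1 at both later times and 0 by at least 2 at both. The GMP mean of Fosb was 64.2 TPM at 0 h, 0.728 TPM at 6 h and 0.26 TPM at 10 h. The further CALM/AF10 lines, quantified separately, differed from each other. Means in lines 1 and 2 were 74.5 and 4.36 TPM for Fosb, 249 and 49.8 TPM for Dusp1, and 73.6 and 10.2 TPM for Jun. The heat shock genes Hspa1a and Hspa1b, a near-identical pair named after their values were seen, averaged 0.592 and 0.765 TPM in CALM/AF10 cells against 33.9 and 49.3 TPM in GMP.

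Genes of inflammatory signalling were called in both directions, with 5 of 25 tested higher and 6 lower and a median of -0.90. Those called lower included the NF-kB feedback genes Tnfaip3, at 3.32, 2.65 and 4.18 TPM in CALM/AF10 cells and 52.8, 56.4 and 52.3 TPM in GMP, and Nfkbiz, at 3.66, 2.83 and 2.83 TPM against 47.8, 53.6 and 49 TPM. Cxcl10, an interferon-induced chemokine, spanned 11.7 to 17.2 TPM against 165 to 178 TPM, and Tnf averaged 34.5 against 228 TPM. For Tnfaip3 and Nfkbiz the later differences were between -0.22 and 0.72, and for Cxcl10 they were -1.40 at 6 h and 3.09 at 10 h. Those called higher were Il1rn, Ccl6, Ccl2, Socs3 and Csf1. Il1rn, the antagonist of the interleukin-1 receptor, had 210.3, 208 and 218 TPM in CALM/AF10 cells and 2.07, 3.09 and 3.1 TPM in GMP (difference 5.84 ± 0.12, limma adjusted p = 5.42e-08), and the chemokine gene Ccl6 403, 387 and 409 TPM against 20.6, 19.3 and 21.4 TPM. Both remained at least 3.53 apart at the later times. Of the 11 called genes, 6 differed by less than 1 at both later times and 4 by at least 2 at both.

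Differences of type I interferon response genes were mostly positive. Of 28 tested, 27 differences were positive, with a median of 1.36, and 3 were called higher (Zbp1, Slfn5 and Ddx58), or 5 under the alternative rescaling. Zbp1, a sensor of Z-form nucleic acids, had 50.4, 41.5 and 49.3 TPM in CALM/AF10 cells and 1.49, 3.07 and 2.06 TPM in GMP (difference 3.93 ± 0.18, limma adjusted p = 2.31e-06). Ddx58, the RNA sensor RIG-I, averaged 12.5 against 2.16 TPM, and Slfn5 18.2 against 2.9 TPM. Among those under the level a call required was Oas2, at 6.7 against 0.609 TPM. The summed level of the 30 listed genes was 669.7 to 686 TPM against 189 to 236 TPM.

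Differences of metabolic and stress genes were mostly positive and under the size threshold. All 21 tested genes of cholesterol synthesis and uptake had positive differences, with a median of 1.32 (21 of 22 under the alternative rescaling), and 1 was called, Mvd, which makes isopentenyl diphosphate, at 27.8 against 5.07 TPM. Of 16 tested NRF2 and glutathione genes 3 were called higher and 13 differences were positive, with a median of 0.82. Under the alternative rescaling 4 of 17 were called higher and 10 differences were positive, with a median of 0.32. Hmox1, the heme oxygenase, had 95.5, 99.8 and 105 TPM in CALM/AF10 cells and 2.13, 2.11 and 3.79 TPM in GMP (difference 4.81 ± 0.17), Nqo1, a quinone reductase, averaged 12.8 against 0.463 TPM, and Gpx3, a glutathione peroxidase, 245 against 33 TPM. Of 20 tested ATF4 and amino acid genes, Atf5 and the asparagine synthetase gene Asns were called higher, or 3 under the alternative rescaling. The Asns difference of 2.28 was 0.12 at 6 h and 0.06 at 10 h. Its GMP means were 7.63, 34.8 and 24.9 TPM at 0, 6 and 10 h, and its CALM/AF10 means 40.7, 37.8 and 26.1 TPM. In glycolysis 2 of 21 were called, Aldoc at 23.5 against 0.215 TPM and the lactate transporter gene Slc16a3 at 45.6 against 9.04 TPM, and 18 differences were positive. Under the alternative rescaling Slc16a3 was at 1.996 and not called, which left 1 of 21, and 15 differences were positive.

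In the list of DNA replication and mitosis genes, all 27 tested had negative differences (26 of 27 with median centring), with a median of -0.76, and 0 were called. Outside the list, and named after their values were seen, the mitotic kinesin gene Kif15 averaged 9.38 against 135 TPM, the centromere gene Cenpu 3.48 against 61.5 TPM and the cohesion gene Esco2 3.65 against 21.1 TPM, and these were called lower, as were Spc24 and Ncapg2. Cenpu shares 24.6% of its 31-base stretches with other transcripts. Mki67, the proliferation marker, averaged 81.1 ± 0.98 TPM in CALM/AF10 cells and 158 ± 5.69 TPM in GMP, the helicase gene Mcm5 27.5 ± 0.0882 against 67.6 ± 1.11 TPM, and Pcna, the replication clamp, 165 ± 3.98 against 169 ± 6.28 TPM. Of 19 tested cell cycle regulators 0 were called, with a median of 0.06 that became -0.24 when samples were rescaled over the genes that are not multi-copy. Ccnd3 averaged 381 against 150.2 TPM, and Cdkn2a, which encodes the tumour suppressors p16 and p19 in mice, averaged 6.2 TPM and was listed at 0 in GMP, below the level a call required. Myc had 513, 503 and 506 TPM against 329.7, 346 and 354 TPM, a difference of 0.56 ± 0.05 (limma adjusted p = 4.99e-05), and 0 of 25 tested genes of MYC and ribosome biogenesis were called, with a median of -0.33, or 1 lower with a median of -0.64 under the alternative rescaling. In the BCL2 family 3 of 15 were called higher, all of them copies of Bcl2a1, a prosurvival gene, which share 79.6% to 89.1% of their 31-base stretches. Bcl2 itself averaged 3.63 against 7.98 TPM, and Mcl1 95.6 against 92.9 TPM.

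Dcps, the target of the inhibitor used later in the time course, had 14.8, 16.8 and 15 TPM in untreated CALM/AF10 cells and 45.2, 48.4 and 42.9 TPM in untreated GMP. It was lower in all 3 CALM/AF10 samples, with a difference of -1.49 ± 0.08 (limma adjusted p = 4.08e-06), under the size threshold. Of 21 tested genes of cap binding and decapping 0 were called, with a median of -0.33, or 1 lower of 22 with a median of -0.63 under the alternative rescaling. The translation repressor gene Eif4ebp1 was among those with the largest positive differences, at 152 against 39.2 TPM, and the decapping cofactor gene Dcp1a among the negative, at 6.68 against 23.3 TPM.

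**Figure D4:**
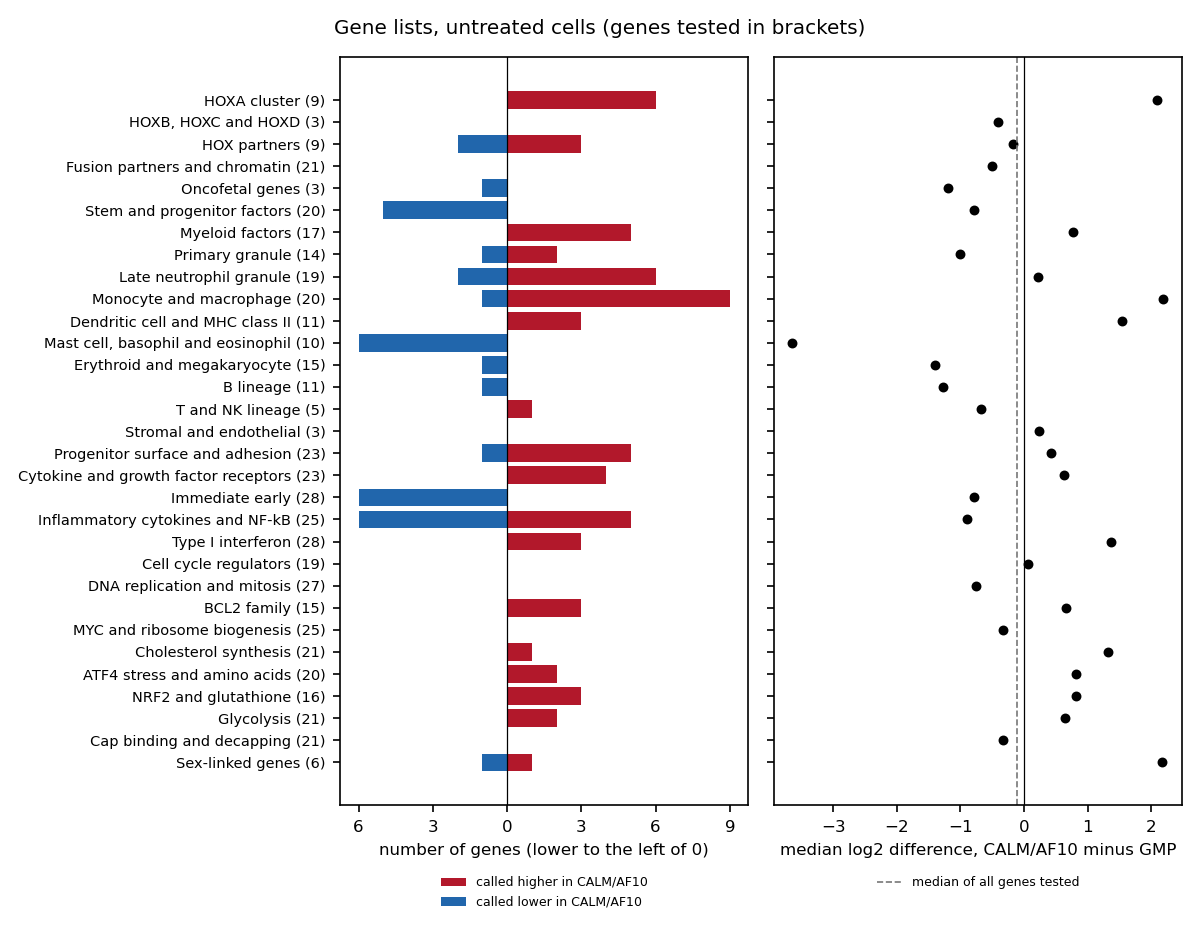
For each of the 31 gene lists (number of genes tested in brackets), the left panel shows how many genes were called higher (red, right of 0) or lower (blue, left of 0) in untreated CALM/AF10 cells, and the right panel the median log2 difference of its tested genes, with a dashed line at the median of all genes tested. The longest bars are those of monocyte and macrophage genes, with 9 higher, and the lowest median is that of mast cell, basophil and eosinophil genes.

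Genes of the sex chromosomes separated the 2 cell types. Xist, the RNA that silences an X chromosome in female cells, had 0.0319, 0.0205 and 0.0371 TPM in CALM/AF10 cells and 165, 193 and 162 TPM in GMP (difference -7.40 ± 0.09, limma adjusted p = 8.8e-09). Eif2s3y, on the Y chromosome, had 14.3, 12.8 and 12.6 TPM in CALM/AF10 cells and was listed at 0 in GMP, and Ddx3y, Uty and Kdm5d were at 7.7, 4.16 and 6.09 TPM against 0.155, 0.0928 and 0.644 TPM. The labels give no sex, and these genes go with cell type, so sex and cell type cannot be told apart in these 6 samples. In the further CALM/AF10 lines, Eif2s3y averaged 0.144 TPM in line 1 and 31.5 TPM in line 2. Erdr1, which lies where the X and Y chromosomes pair, was listed at 0 in CALM/AF10 cells and had 1355, 1675 and 1166 TPM in GMP. For Erdr1 neither a level in the lines nor a share of 31-base stretches was available.

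Some genes that nearly every cell uses also passed the call, and they were named after their values were seen. Hnrnpu, an RNA-binding protein of the nucleus, had 14.5, 13.2 and 13.5 TPM in CALM/AF10 cells and 264, 247 and 247 TPM in GMP, Tomm20, a mitochondrial import receptor, 17.1, 14.3 and 16.9 TPM against 188, 207 and 159.9 TPM, and Hmgn1, a nucleosome-binding protein, 0.0831, 0.21 and 1.28 TPM against 41.5, 34.5 and 34.9 TPM. In the other direction, the proteasome gene Psma2 averaged 183 against 34.1 TPM and the mitochondrial ribosome gene Mrps16 111 against 11.1 TPM. These 5 share 6.13% to 8.48% of their 31-base stretches with other annotated transcripts. In the CALM/AF10 lines, which were quantified separately, Hnrnpu stood at 193 and 235 TPM and Tomm20 at 74.3 and 90.6 TPM, above the time-course CALM/AF10 cells. The part of the tables' construction in these differences was not tested.

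Samples outside the comparison gave the same genes a second reading. Among the 305 genes called higher, 289 had all 9 CALM/AF10 samples of the time course above all 9 GMP samples (18.3% of all genes tested), and 195 differed by at least 2 at both 6 h and 10 h (2.84%). Among the 132 called lower these counts were 114 (22.5%) and 71 (1.64%). The untreated samples are among the 9, and the treated samples come from the same tables, so they share the tables' construction. All 6 called HOXA genes and all 6 called eosinophil, basophil and mast cell genes kept a difference of at least 2 at both times, as did 7 of 10 called monocyte and macrophage genes. Tarm1 did so with a smaller gap, from 7.94 at 0 h to 2.68 at 6 h, while its GMP mean stood at 2.63, 137 and 109.9 TPM over the 3 times. Fewer called genes kept such a difference in some other lists. These were 2 of 5 myeloid factors, 2 of 4 receptors, 0 of 3 interferon genes and 0 of 3 BCL2 family genes. At 6 h and 10 h the differences were 0.67 and 0.47 for Id1, and 0.28 and -0.07 for Ctsc. They were 0.60 and 0.44 for Csf2rb, and -0.93 and 0.04 for Bcl2a1d.

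A pair of further CALM/AF10 lines, with 3 samples each, set these differences beside other cells with the same fusion. They were quantified per transcript in separate files, and their values were summed per gene and rescaled over 21627 shared symbols, so they are levels without a test. Of 301 genes called higher that have a line value, 212 were above every untreated GMP sample in all 6 line samples (29.8% of the 10286 tested genes with a line value), and of 125 called lower 93 were below (28.6%). The GMP samples are the ones the calls used. Hoxa9 stood at 102 and 122 TPM (means of lines 1 and 2), Hoxa10 at 16 and 24.1 TPM and Meis1 at 54.6 and 66.2 TPM, all above GMP. Hoxa11, by contrast, was at 0.165 and 0.0514 TPM, near the GMP level. Some named genes called higher had line means below the untreated GMP mean. Csf2rb was at 31.5 and 43.7 TPM in the lines against 50.9 TPM in GMP. Gpx3 was at 19.6 and 24.8 TPM against 33.0 TPM, and Ly6a at 10.4 and 10.7 TPM against 14.1 TPM. The lines also differed from the time-course CALM/AF10 cells for the most extreme genes. Csn2 averaged 0.196 and 0.199 TPM in the lines, Klk1b11 0.176 and 0.499 TPM and Thy1 6.95 and 3.11 TPM. Mpo was at 2259.6 and 2337 TPM and Prg2 at 189 and 138 TPM, both far above the time-course CALM/AF10 cells. So were Epx at 38.3 and 28.7 TPM, Hdc at 46.2 and 41.7 TPM and Bcl11a at 18.9 and 15.6 TPM. Ear1, in contrast, was at 0.325 and 0.588 TPM, while its paralogs Ear2 and Ear6 were at 35.3 and 20.2 TPM and at 2.66 and 16.3 TPM. Ear1 and Ear2 share 73.6% and 60.5% of their 31-base stretches with other transcripts. In line 1, Ltf was at 9416 TPM and Camp at 6628 TPM, far above both cell types of the time course. Their levels in line 2 are not reported here. Lyz2, S100a9 and Chil3 were above both untreated groups in both lines, at 3093, 54381 and 2274 TPM in line 1.

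**Figure D5:**
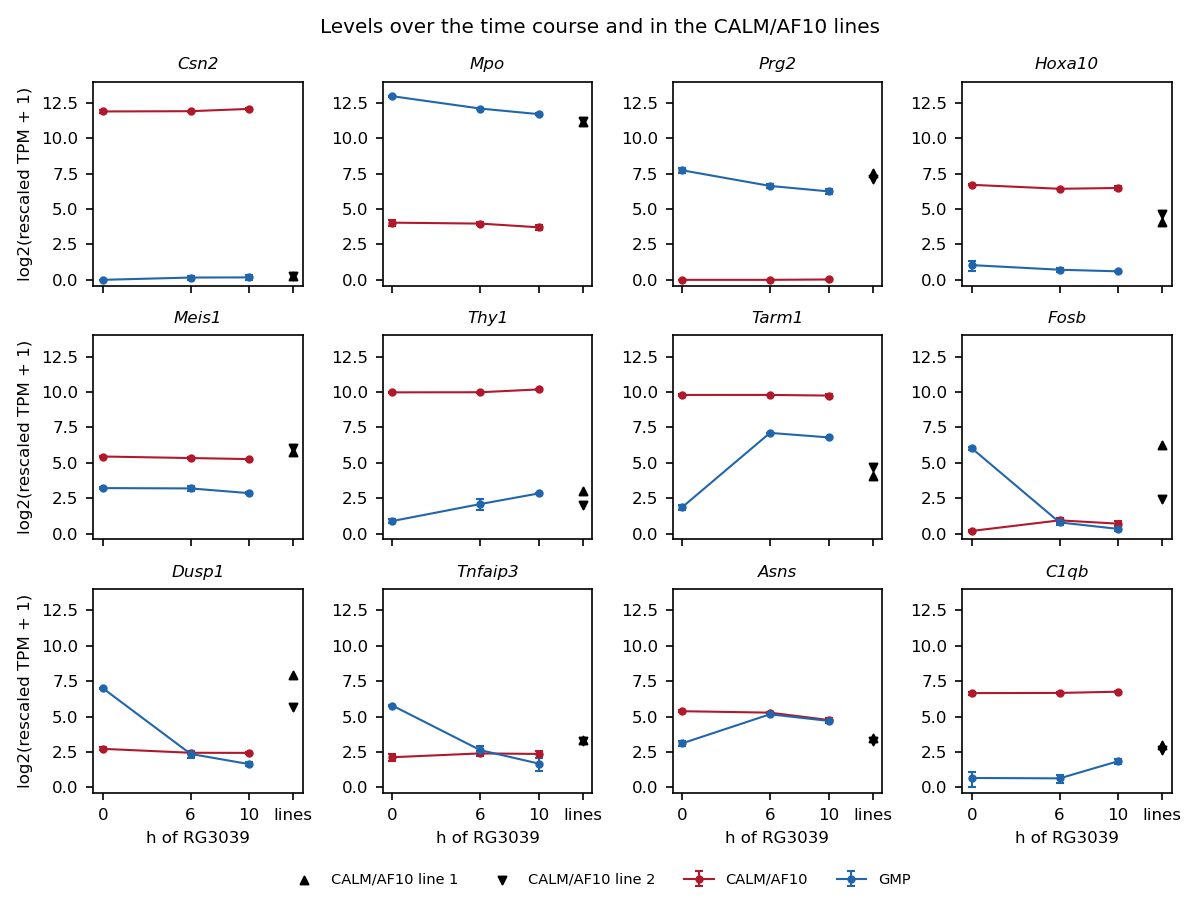
Levels on the log2(rescaled TPM + 1) scale over 0, 6 and 10 h of RG3039 in CALM/AF10 cells (red) and GMP (blue), as means with SD bars of 3 samples, with triangles for the means of the 2 separately quantified CALM/AF10 lines. Csn2, Hoxa10, Meis1 and C1qb keep their gap at all 3 times, Fosb, Dusp1, Tnfaip3 and Asns differ at 0 h and come together later, and the lines lie nearer to GMP than to the time-course CALM/AF10 cells for Csn2, Mpo and Prg2.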

How the data were processed

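Per the labels' protocols, total RNA went into libraries made with NuGEN's Ovation kit for mouse. The submitters' processing notes name STAR and the mm10 build, with no version or role. Per the file headers, the authors gave gene-level TPM for each cell type of the time course in a table of its own, and transcript-level TPM for each sample of the CALM/AF10 lines. The quantifier and annotation of the gene tables are not given in the sources used here, and since TPM fixes the total of every sample the depth of the time course is unknown. Columns carry the group and no replicate number, so samples are called a, b and c in column order.

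TPM were rescaled to 1000000 over the 30337 genes in both tables and taken as log2(TPM + 1), which understates differences of low genes. The 12981 genes with at least 1 TPM in at least 3 of the 6 samples entered a fit in limma 3.58.1 (R 4.3.3), whose moderated test used a trend of variance on level, with Benjamini-Hochberg adjustment over all of them. The 2490 multi-copy genes among them were left out of calls. These were ribosomal proteins, histones, mitochondrial transcripts, receptor and immunoglobulin segments, globins, MHC class I genes, predicted genes, small RNAs and genes with pseudogene entries. The analysis was tested on simulated data. Line transcripts were matched to genes with GENCODE M21 (98206 of 99567) and summed, and the share of 31-base stretches found in transcripts of other genes was counted in the same annotation.

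The 31 gene lists, the members and the rule for named genes were chosen with earlier results of these data known. That rule took 8 genes whatever their values (Dcps, Hoxa9, Meis1, Myc, Picalm, Mllt10, Cd34 and Kit), the 12 largest differences in each direction, and, from lists that had at least 2 calls, up to 4 of them, which gave 88 genes. Other genes appear as list examples or are said to be chosen after their values were seen. Alternatives changed the scaling, pseudocount, filter, thresholds, treatment of multi-copy genes, fit and samples. The deposited junction tables and the MLL/AF9 lines were not used here, and a few list members are not reported here.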

Additional observations from a re-analysis of the deposited data

How the results depend on the processing

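The counts of 305 genes higher and 132 lower moved by more than 1.5 times in few settings. Rescaling over the genes that are not multi-copy gave 327 lower, among them all 132, and 354 higher, with 269 shared. A pseudocount of 5 gave 192 and 68, a log2 threshold of 1 gave 747 and 579, a threshold of 3 gave 166 and 65, and a level of at least 30 TPM gave 188 and 69. Deposited TPM without rescaling, median centring, quantile normalization, a pseudocount of 0.1, other filters, a level of at least 5 TPM, multi-copy genes counted, all 18 samples in the fit and no trend gave 305 to 383 higher and 126 to 196 lower. Leaving out each sample in turn gave 303 to 316 higher and 128 to 140 lower. Leaving out genes that share 20% or more of their 31-base stretches, an alternative chosen after seeing the data, gave 255 and 121. Over 88 named genes and 22 settings, 1861 of 1936 values kept their direction and their side of the call, 71 lost the call, 3 gained it and 1 reversed, and 45 of the 88 genes kept both under every setting. The reversed value was Mllt10 at -0.024 after rescaling over the genes that are not multi-copy. That rescaling also took Il4ra (1.90) and Slc16a3 (to 1.996) below the size threshold. Without CALM/AF10 sample b, Bcl2a1a lost its call at a difference of 3.18, because its mean fell below 10 TPM. A pseudocount of 5 took 18 named genes below the size threshold, among them Meis1 at 1.84. No paired analysis was possible because the columns carry no replicate numbers. Depth is unknown, so no counting error can be given, and low values are read only as low.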

Other observations

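Cish, Socs2 and Socs1, suppressors of cytokine signalling picked after their values were seen, each had a higher level in untreated CALM/AF10 cells. Cish averaged 109 ± 4.81 TPM in CALM/AF10 cells and 6.83 ± 0.661 TPM in GMP, Socs2 45.9 ± 3.09 against 1.65 ± 0.151 TPM, and Socs1 36.4 ± 0.506 against 2.67 ± 0.119 TPM. The differences were 3.82, 4.14 and 3.35 on the log2 scale. At 6 h of RG3039 they were 0.02, 2.55 and 0.13, and the GMP mean of Cish was then 113 TPM. In the CALM/AF10 lines Cish stood at 16.1 and 13.8 TPM and Socs2 at 2.95 and 3.48 TPM.

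A few other called genes outside the lists were also picked after their values were seen. Igf1, the insulin-like growth factor, averaged 38.2 ± 0.23 TPM in CALM/AF10 cells and 0.191 ± 0.184 TPM in GMP, Spp1 (osteopontin) 60.4 ± 2.05 against 2.18 ± 1.24 TPM, and the lipid receptor gene Trem2 39.7 ± 4.61 against 1.48 ± 0.292 TPM. Ifitm1, an interferon-induced membrane protein, averaged 1807 ± 51.2 against 52.2 ± 5.09 TPM. Cyp11a1, which starts steroid hormone synthesis, averaged 97.8 ± 3.91 against 0.586 ± 0.103 TPM, and stood at 0.512 and 0.246 TPM in the lines. Among the genes called lower, Eng (endoglin) averaged 0.011 ± 0.0106 against 21.6 ± 1.84 TPM, the adhesion gene Vcam1 0.272 ± 0.0613 against 17.3 ± 1.49 TPM, and the chromatin organiser gene Satb1 0.0158 ± 0.0273 against 10.4 ± 1.29 TPM. In the lines Satb1 stood at 13.2 and 15.1 TPM and Vcam1 at 12 and 12.9 TPM, both far above the time-course CALM/AF10 cells.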
